A study of Mus musculus with 6 samples.

Results

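The 10 peptide hormone genes of the islet and gut described here were chosen by name, and not by a threshold on a measured value, from the 53801 genes listed for 6 clones of MIN6, a line from a mouse insulinoma that serves as a β cell model. They are *Ins1* and *Ins2* (insulin), *Iapp* (islet amyloid polypeptide), *Gcg* (glucagon and GLP-1), *Sst* (somatostatin), *Ppy* (pancreatic polypeptide), *Pyy* (peptide YY), *Sct* (secretin), *Ghrl* (ghrelin) and *Cck* (cholecystokinin). MIN6 cells that carried Cas9, a nuclease directed by a guide RNA, received guides by lentivirus and were selected with puromycin. In the 3 control clones the guide was directed to a noncoding stretch of *Snd1*, intron 2, and in the 3 *Snd1* KO clones to exon 2. *Snd1* encodes a coregulator that was studied for its binding to PDX1. All 6 clones therefore carried Cas9 and a guide to *Snd1*, and each was grown from a single cell. The p-values below measure the spread between such clones, with 1 library per clone.

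Each of these hormones is made as a longer precursor, which is routed to secretory granules, cut at basic residues by prohormone convertases and, for several of them, amidated at the end of the chain. In the islet, β cells release insulin together with islet amyloid polypeptide, while glucagon, somatostatin, pancreatic polypeptide and ghrelin come from α, δ, PP and ε cells. Secretin, cholecystokinin, peptide YY and GLP-1 are hormones of enteroendocrine cells of the gut, and *Cck* is also a major neuropeptide gene of the brain.

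RNA of 6 of the 10 genes was readily measured in these clones, and the other 4 were at or near the limit of detection. *Sct* and *Cck* RNA was lower in all 3 *Snd1* KO clones than in all 3 control clones, at 19.6% and 33.0% of the control mean, but neither passed the test after adjustment over all genes. *Ins1*, *Ins2*, *Iapp* and *Gcg* overlapped between the groups, and the largest differences in *Ins1* and *Gcg* were between the *Snd1* KO clones themselves.

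Bases upstream of the hormone genes are given first. *Sct* and *Cck* were taken because they were lower in every *Snd1* KO clone. *Gcg*, *Ins1* and *Iapp* had the widest range between clones among the other hormones with measurable RNA. The runs are the 250 bases before the RefSeq start on build GRCm38.p6, 5′ to 3′ on the strand of the gene, for *Sct* (chr7:141279134-141279383, minus strand), *Cck* (chr9:121495695-121495944, minus strand), *Ins1* (chr19:52264047-52264296, plus strand), *Iapp* (chr6:142298175-142298424, plus strand) and *Gcg* (chr2:62483654-62483903, minus strand). Capitals mark the E-box letters CATCTG, which read CAGATG when they lie on the other strand, and the TATA letters TATAAA, which then read TTTATA.
Sct: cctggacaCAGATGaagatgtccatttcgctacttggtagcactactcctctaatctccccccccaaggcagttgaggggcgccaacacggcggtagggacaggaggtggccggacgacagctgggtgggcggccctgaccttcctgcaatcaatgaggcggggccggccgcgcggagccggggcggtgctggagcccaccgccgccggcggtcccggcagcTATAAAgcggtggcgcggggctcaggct
Cck: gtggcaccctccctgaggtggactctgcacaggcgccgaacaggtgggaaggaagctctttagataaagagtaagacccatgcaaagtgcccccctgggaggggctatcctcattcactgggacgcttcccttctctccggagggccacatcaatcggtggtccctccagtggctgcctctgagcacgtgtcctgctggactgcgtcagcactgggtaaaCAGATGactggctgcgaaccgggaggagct
Ins1: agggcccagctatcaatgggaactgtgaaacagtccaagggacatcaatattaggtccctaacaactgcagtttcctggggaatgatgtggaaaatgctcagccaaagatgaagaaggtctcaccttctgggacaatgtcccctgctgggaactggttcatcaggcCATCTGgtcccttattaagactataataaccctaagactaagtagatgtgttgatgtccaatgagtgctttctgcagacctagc
Iapp: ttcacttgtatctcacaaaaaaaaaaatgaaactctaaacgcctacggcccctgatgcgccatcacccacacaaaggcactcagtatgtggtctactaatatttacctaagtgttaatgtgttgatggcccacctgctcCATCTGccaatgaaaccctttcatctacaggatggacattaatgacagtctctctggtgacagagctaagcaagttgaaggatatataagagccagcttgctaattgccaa
Gcg: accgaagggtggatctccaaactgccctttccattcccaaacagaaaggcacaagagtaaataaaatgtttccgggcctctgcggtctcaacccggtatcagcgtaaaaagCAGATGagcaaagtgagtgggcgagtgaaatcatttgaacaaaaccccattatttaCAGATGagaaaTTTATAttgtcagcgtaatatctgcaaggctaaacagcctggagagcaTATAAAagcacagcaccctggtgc

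E-boxes are the letters that NEUROD1 and its partners bind, and the A-box CTAATG and the CRE TGACGTCA are textbook motifs of PDX1 and CREB1. The 4 motifs were searched on both strands from 250 bases before to 50 bases after each start. The E-box letters were in 17.2% of 32851 mouse promoters of this length, the A-box in 7.36%, the CRE in 1.79% and TATAAA in 13.6%. In *Sct* the E-box letters began 242 bases before the start and TATAAA 28 bases before it, and in *Cck* the E-box letters began 30 bases before the start. *Ins1* had E-box letters 84 bases before the start and again at base 43 after it, and *Iapp* had them 111 bases before it. *Gcg* had them 139 and 83 bases before the start, with TATAAA at 24 bases and on the other strand at 72 bases. Neither the A-box nor the CRE letters were found in the windows of these 5 genes, whereas the window of *Sst* held the A-box at 96 bases and the CRE at 48 bases before the start. The upstream runs of *Sct* and *Cck* were 68.0% and 60.0% G or C, against 46.4% for *Ins1*, 42.8% for *Iapp* and 44.8% for *Gcg*. These matches describe letters and not binding. The promoter table matched 9 of the 10 genes, all but *Ins2*.

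The deposited values are TPM, transcripts scaled to a sum of 1000000 in each clone. These values came in steps of whole reads, so the reads behind each value could be recovered, and the depth was between 23700630 and 30454383 reads on genes per clone. TPM divides reads by a gene length that here was the sum over all transcripts of the gene, which lowers the value of genes with many transcripts. *Snd1* itself was at 113, 119 and 112 TPM in control clones 1 to 3. It was at 14.7, 57.1 and 19.9 TPM in *Snd1* KO clones 1 to 3, so RNA remained there, most of it in *Snd1* KO 2. The study selected its *Snd1* KO clones as deficient in SND1 protein by immunoblot. It also reports exon 2 indels that disrupted the protein. The remaining RNA is therefore no measure of remaining protein. Of the markers fixed for each cell type, all 10 β cell markers averaged 1 TPM or more, *Ucn3* only through *Snd1* KO 1. The α cell factor *Irx2*, the δ cell factor *Hhex*, all 3 PP cell markers and the enteroendocrine factor *Neurog3* had at most 3 reads in every clone. Acinar *Cpa1*, *Prss2*, *Amy2b* and *Ctrb1* and ductal *Krt19*, *Sox9* and *Cftr* were also at or below 3 reads, and acinar *Cela1* had at most 22 reads, whereas ductal *Krt7* was at 3.55, 1.59 and 72.9 TPM in the control clones and 87.2, 77.0 and 44.1 TPM in the *Snd1* KO clones. The 5 fibroblast markers summed to between 0.157 and 4.83 TPM in the control clones and between 0.489 and 0.823 TPM in the *Snd1* KO clones. In bulk RNA, fewer cells that express a hormone and less RNA per cell cannot be told apart.

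**Figure D1:**
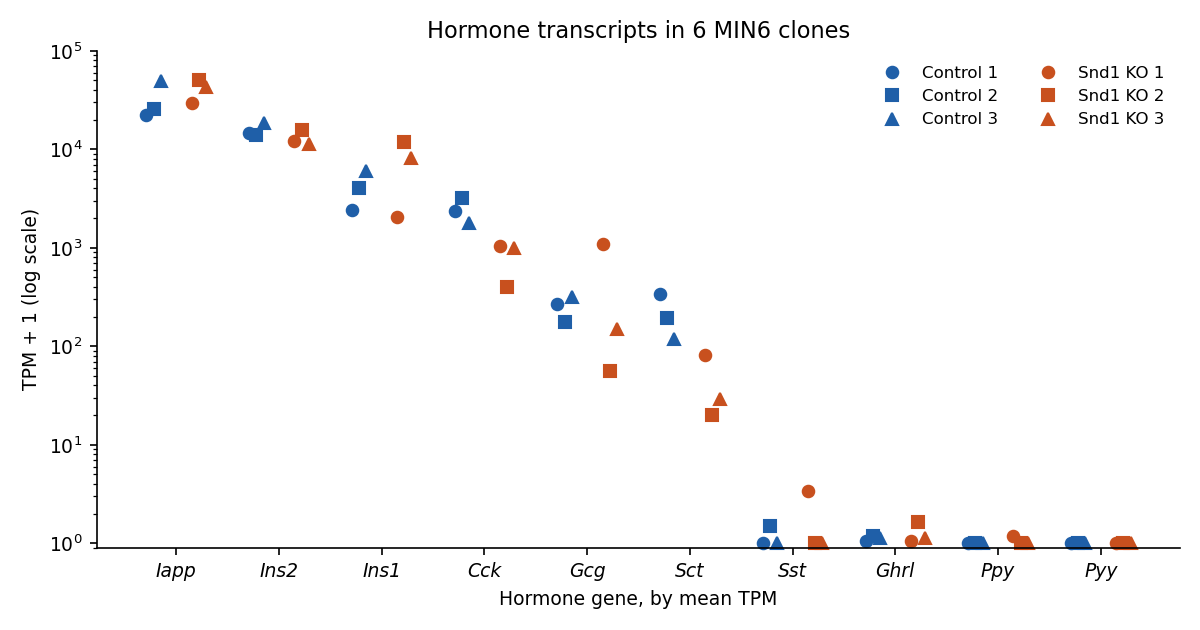
TPM + 1 on a log axis for each of the 10 hormone genes, ordered by mean TPM, with 1 point per clone (blue, control; orange, Snd1 KO; circles, squares and triangles, clones 1, 2 and 3). Iapp, Ins2 and Ins1 lead in every clone, Cck and Sct are lower in all 3 Snd1 KO clones, Gcg spans from 55.2 to 1100 TPM within the Snd1 KO clones, and Sst, Ghrl, Ppy and Pyy lie at the bottom of the axis.

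The β cell hormones carried most of the hormone RNA. By mean TPM over the 6 clones the order was *Iapp* (36613), *Ins2* (14365), *Ins1* (5795), *Cck* (1628), *Gcg* (343) and *Sct* (129). *Iapp* was above *Ins2* and *Ins2* above *Ins1* in every clone. As deposited, *Ins1* was also above *Cck* in every clone, but in control 1 they were close, at 2429 and 2368 TPM. The remaining neighbours were not separated in every clone, since *Gcg* exceeded *Cck* in *Snd1* KO 1, and *Sct* exceeded *Gcg* in controls 1 and 2. The order depended on the length used. *Ins2* has 9 annotated transcripts whose lengths sum to 4494 bases, but they cover 1312 bases when each exonic base is counted once. With that length *Ins2* averaged 32978 and *Iapp* 28566 TPM, and *Ins2* was the higher in all clones but *Snd1* KO 2 and *Snd1* KO 3. *Cck* then averaged 2956 and *Ins1* 3717 TPM, and *Cck* was the higher in control 1 (4271 and 1545 TPM), control 2 (5749 and 2611 TPM) and *Snd1* KO 1 (1906 and 1330 TPM). The 10 genes together took between 1.85% and 3.19% of the reads on genes in a clone, with 95% Wilson intervals of at most ± 0.00709 percentage points, which cover counting error only.

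*Ins1* (ENSMUSG00000035804, chr19:52264297-52265476, plus strand) is the insulin gene that arose by retroposition and is specific to rodents. It was at 2429, 4086 and 6033 TPM in the control clones and at 2059, 11945 and 8219 TPM in the *Snd1* KO clones. The groups overlapped, because *Snd1* KO 1 was the lowest and *Snd1* KO 2 the highest of all 6 clones, 5.80-fold apart. Group means were 4183 ± 1804 and 7408 ± 4993 TPM (SD, n = 3 each). The log2 fold change of *Snd1* KO against control on the log2(TPM + 1) scale was 0.59 with a standard error of 0.69 (limma adjusted p = 0.836, range over the alternatives 0.0765 to 1). The 95% interval ran from 48.1% to 468% of the control level, so neither direction was settled. Without *Snd1* KO 1 the log2 fold change was 1.34, and without *Snd1* KO 2 it was 0.073.

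*Ins2* (ENSMUSG00000000215, chr7:142678656-142743381, minus strand), the ancestral insulin gene, varied less. It was at 14480, 13976 and 18632 TPM in the control clones and at 12195, 15716 and 11194 TPM in the *Snd1* KO clones. The ranges overlapped through *Snd1* KO 2, and the highest clone was 1.66-fold above the lowest. Means were 15696 ± 2555 and 13035 ± 2375 TPM (SD, n = 3 each), with a log2 fold change of -0.27, a standard error of 0.29 and an adjusted p of 0.813 by limma (alternatives 0.320 to 1). The 95% interval was 51.4% to 134% of control. The sign was not stable, since quantile normalization gave a log2 fold change of 0.0044.

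The balance of the insulin genes varied between clones, and the genotypes overlapped. For each *Ins1* read there were 26.4, 15.1 and 13.7 *Ins2* reads in the control clones and 26.2, 5.82 and 6.02 in the *Snd1* KO clones. *Snd1* KO 1 had the ratio of control 1, whereas *Snd1* KO 2 and 3 lay below all control clones. Per length as deposited, *Ins2* exceeded *Ins1* between 1.32-fold and 5.96-fold, and with each exonic base counted once between 4.71-fold and 21.3-fold. Annotated transcripts of *Ins1* and *Ins2* were 86.4% identical over 479 aligned bases, and the longest identical run was 55 bases. How reads matching both genes were counted was not given in the sources used here, so levels of the insulin genes relative to each other are uncertain.

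**Figure D2:**
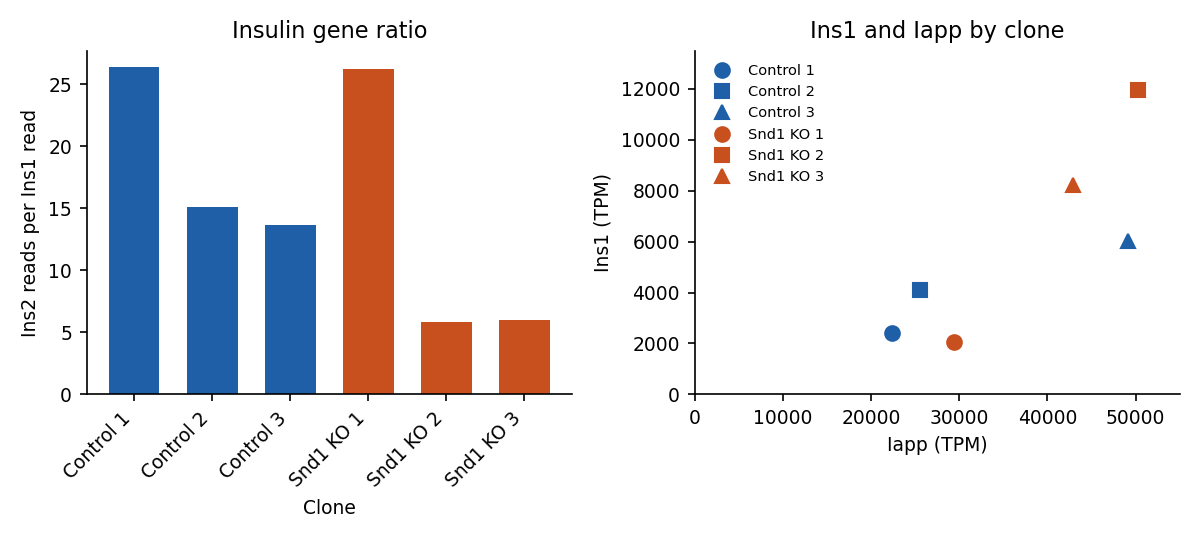
Left, Ins2 reads per Ins1 read in each clone (bars from 0, no replicate error because each bar is 1 library). Right, Ins1 against Iapp in TPM, 1 point per clone. Snd1 KO 1 has a ratio of 26.2, close to the 26.4 of control 1, while Snd1 KO 2 and 3 are at 5.82 and 6.02. At the right, control 3, Snd1 KO 2 and Snd1 KO 3 are the 3 highest clones for both genes.

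*Iapp* (ENSMUSG00000041681, chr6:142298423-142303961, plus strand) is co-released with insulin. It was at 22390, 25567 and 49144 TPM in the control clones and at 29417, 50246 and 42914 TPM in the *Snd1* KO clones. Control 3 stood with *Snd1* KO 2 and 3, so the groups overlapped through that clone, and these 3 clones were also the highest for *Ins1*. Means were 32367 ± 14616 and 40859 ± 10566 TPM (SD, n = 3 each). The log2 fold change was 0.39 with a standard error of 0.47 (limma adjusted p = 0.838, alternatives 0.106 to 1). It was 0.17 without control 1 and 0.74 without control 3, where every *Snd1* KO clone then exceeded both remaining controls, as did 3097 of the 17958 genes tested without that clone. A gene on the opposite strand, *Slco1a5*, overlaps *Iapp* and had a mean of 71.7 reads, against at least 145334 reads for *Iapp* in each clone.

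*Gcg* (ENSMUSG00000000394, chr2:62474530-62483650, minus strand) encodes proglucagon, from which α cells cut glucagon and intestinal L cells GLP-1. Among the 6 hormones with measurable RNA it varied most between clones. It was at 267, 174 and 314 TPM in the control clones and at 1100, 55.2 and 148 TPM in the *Snd1* KO clones. *Snd1* KO 1 was above all controls and the other *Snd1* KO clones below them, with 19.9-fold between *Snd1* KO 1 and *Snd1* KO 2. Means were 251 ± 71.3 and 434 ± 578 TPM (SD, n = 3 each), and the log2 fold change was -0.23 with a standard error of 1.0 (limma adjusted p = 0.966, alternatives 0.286 to 1). Without *Snd1* KO 1 the log2 fold change was -1.42, and without *Snd1* KO 2 it was 0.72. Other genes of the α cell list did not follow 1 pattern. *Slc7a2*, a cationic amino acid transporter, was at 74.0, 73.5 and 96.0 TPM in the control clones and at 147, 120 and 96.8 TPM in the *Snd1* KO clones, highest in *Snd1* KO 1, whereas *Ttr*, the transthyretin gene, was at 3796 TPM in *Snd1* KO 1 against 14121 to 20138 TPM in the control clones. *Irx2* had at most 2 reads in each clone. The part of α cell genes in the *Gcg* values was not tested.

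*Snd1* KO 1 also stood apart for *Ucn3* and *Tph1*. *Ucn3*, which encodes urocortin 3 of mature β cells, was at 41.6 TPM there and at 0.273 to 0.680 TPM in the other 5 clones. *Tph1*, which encodes an enzyme of serotonin synthesis, was at 89.2 TPM in *Snd1* KO 1 against 8.18, 7.78 and 18.1 TPM in the control clones and 7.52 and 10.3 TPM in *Snd1* KO 2 and 3. *Tph1* was named here after its values were seen, as a marker of the enteroendocrine list. Whether this clone's profile bears on its *Gcg* level was not tested.

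*Sct* (ENSMUSG00000038580, chr7:141278330-141279133, minus strand) encodes secretin, which stimulates bicarbonate secretion by the pancreatic ducts. It was at 340, 192 and 117 TPM in the control clones and at 80.1, 19.0 and 28.3 TPM in the *Snd1* KO clones, from 4214, 2259 and 1257 reads and from 894, 204 and 326 reads. Every *Snd1* KO clone was below every control clone, and the closest pair was control 3 at 117 TPM and *Snd1* KO 1 at 80.1 TPM. The *Snd1* KO mean of 42.4 ± 32.9 TPM was 19.6% of the control mean of 216 ± 113 TPM (SD, n = 3 each). The log2 fold change was -2.45 with a standard error of 0.58, and its 95% interval was 6.93% to 48.1% of control. *Sct* did not pass the threshold after adjustment over all genes (limma unadjusted p = 0.00452, adjusted p = 0.544, alternatives 0.0179 to 1). It passed when clones were weighted by quality, with a log2 fold change of -3.00 and an adjusted p of 0.0179. That weighting called 895 of the 17823 genes, and gave low weights to control 3 (0.279) and *Snd1* KO 1 (0.286), the closest pair for *Sct*. Leaving out each clone in turn gave log2 fold changes from -3.04 to -2.02. The study picked *Sct* for follow-up from these libraries, so its direction here is no independent evidence. That follow-up was qPCR of separately isolated RNA from the lines, where the study lists *Sct* among the downregulated genes.

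*Cck* (ENSMUSG00000032532, chr9:121489824-121495694, minus strand) encodes cholecystokinin, which drives gallbladder contraction and pancreatic enzyme release. It was at 2368, 3174 and 1803 TPM in the control clones and at 1041, 397 and 987 TPM in the *Snd1* KO clones. No *Snd1* KO clone reached the lowest control. *Cck* took 0.158%, 0.212% and 0.133% of the reads on genes in the control clones and 0.0703%, 0.0282% and 0.0667% in the *Snd1* KO clones. Means were 2448 ± 689 and 808 ± 357 TPM (SD, n = 3 each), which put the *Snd1* KO clones at 33.0% of control. The log2 fold change was -1.68 with a standard error of 0.41, and the 95% interval was 15.8% to 61.5% of control. *Cck* also missed the threshold (limma unadjusted p = 0.00511, adjusted p = 0.556, alternatives 0.0250 to 1) and passed it with clone quality weights, at a log2 fold change of -1.64 and an adjusted p of 0.0250, under the same weights. Leaving out each clone in turn gave values from -1.93 to -1.23.

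The clones stood in nearly the same order for both gut hormones. From high to low, *Cck* ran control 2, control 1, control 3, *Snd1* KO 1, *Snd1* KO 3 and *Snd1* KO 2, and *Sct* ran in the same order except that controls 1 and 2 changed places. *Snd1* KO 2, lowest for both, was the *Snd1* KO clone with the most *Snd1* RNA (57.1 TPM). Controls 1 and 2, highest for both, also stood apart from the other clones in markers named here after their values were seen. Fibroblast *Col3a1* had 122 and 119 reads there against at most 7 in the other clones. Immune *Lyz2* had 28 and 36 reads in controls 1 and 2 against at most 3. *Cd68* of the same immune list did not follow it. It had 45, 15 and 25 reads in the control clones and 30, 37 and 27 in the *Snd1* KO clones. Ductal *Krt7* was at 3.55 and 1.59 TPM in controls 1 and 2 against 44.1 to 87.2 TPM in the other clones. *Slc30a8*, the zinc transporter of insulin granules, was at 215 and 191 TPM in controls 1 and 2 against 744 to 1005 TPM. The β cell markers did not all go this way. *Pdx1* was at 2122 and 2164 TPM in controls 1 and 2 against 1634 to 1873 TPM in the other clones. *Nkx6-1* was at 1095 and 1098 TPM against 699 to 1012 TPM. The part of these differences in the *Sct* and *Cck* result was not tested. *Gip* and *Nts*, other enteroendocrine hormones, had at most 9 and 4 reads in any clone.

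**Figure D3:**
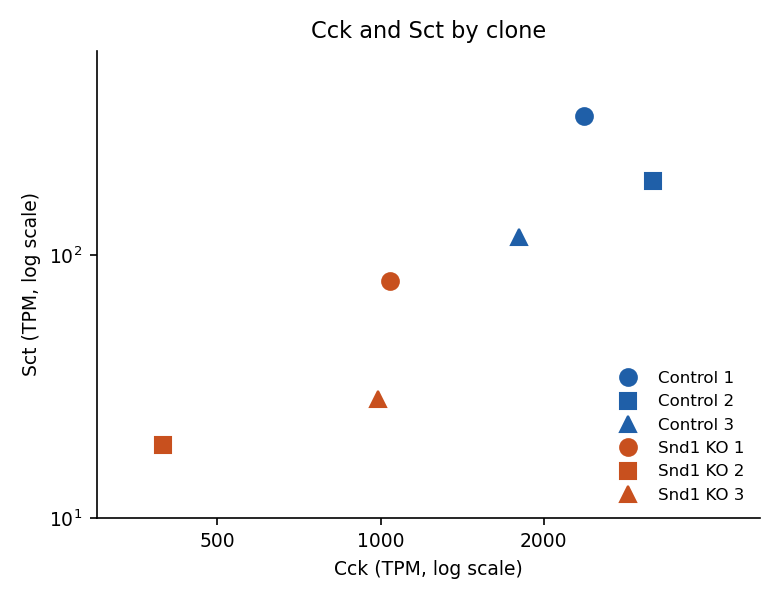
Sct against Cck in TPM on log axes, 1 point per clone (blue, control; orange, Snd1 KO). The 3 Snd1 KO clones lie below and to the left of the 3 control clones, with Snd1 KO 1 (Cck 1041, Sct 80.1) nearest to control 3 (Cck 1803, Sct 117).

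The other 4 hormone genes were at or near the limit of detection, and no fold change is given for them. *Sst* (ENSMUSG00000004366, chr16:23889573-23890958, minus strand), the inhibitory hormone of δ cells, had 0, 2 and 0 reads in the control clones and 9, 0 and 0 reads in the *Snd1* KO clones. The 9 reads were in *Snd1* KO 1, the clone with the most *Gcg*. *Ppy* (ENSMUSG00000017316, chr11:102099930-102101319, minus strand) had 1 read, also in *Snd1* KO 1. *Pyy* (ENSMUSG00000017311, chr11:102106676-102107832, minus strand) had 0 reads in all 6 clones, which allows up to 3 reads, or 0.260 to 0.301 TPM, per clone. *Ghrl* (ENSMUSG00000064177, chr6:113716119-113719880, minus strand), the appetite-stimulating hormone of ε cells, had 1, 3 and 2 reads in the control clones and 1, 10 and 2 in the *Snd1* KO clones. Its highest value, 0.648 TPM in *Snd1* KO 2, was above the 3-read level of 0.169 to 0.195 TPM. The antisense gene *Gm26982*, with a mean of 54.0 reads, overlaps *Ghrl*, and since the strand setting of the counting was not given in the sources used here, reads of these genes cannot be told apart.

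In the comparison over all genes, 6 of the 10 hormone genes passed the filter of a mean of at least 0.5 TPM. None of these was called at an adjusted p under 0.05 and at least a 2-fold change, beside 0.00561% of the 17823 genes tested, which was a single gene, *Gm24966*, named here after its value was seen. At an unadjusted p under 0.05 by limma there were 2 of the 6, *Sct* and *Cck*, beside 7.96% of all genes tested. The same 2 genes had every *Snd1* KO clone below every control clone, beside 4.03% of all genes tested, and 0 of the 6 had every *Snd1* KO clone above, beside 9.69%. That background depended on the scaling. As deposited, 1727 genes had every *Snd1* KO clone above and 718 below, with quantile normalization 1183 and 1346, with scaling by the median ratio 1354 and 1205, and with rescaling without insulin and mitochondrial genes 2361 and 452, while the hormone genes below were *Sct* and *Cck* each time. An exact two-sided permutation test gave p = 0.1 for *Sct* and *Cck*, the smallest that 3 against 3 clones allow, and p = 0.3 for *Ins2* and *Iapp*, 0.6 for *Ins1* and 0.9 for *Gcg*. The median log2 fold change of all genes tested was 0.044, so the reference for these values was close to 0.

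**Figure D4:**
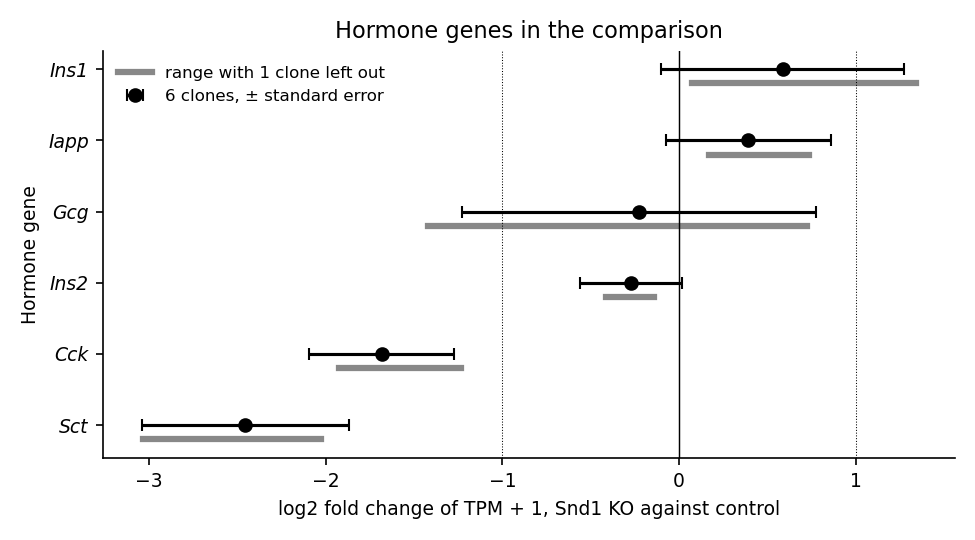
Log2 fold change of TPM + 1, Snd1 KO against control, for the 6 hormone genes in the comparison (points with standard errors, 3 clones a group) and the range when each clone is left out in turn (grey bars); dotted lines mark a 2-fold change. Sct at -2.45 and Cck at -1.68 stay below the 2-fold line throughout, the Gcg bar runs from -1.42 to 0.72, and the bars of Ins1, Iapp and Ins2 stay on 1 side of 0.

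The receptors for these hormones were chosen as a list of 22 genes, of which 9 passed the filter. Of the 9, 1 had every *Snd1* KO clone higher and 1 every *Snd1* KO clone lower, beside 9.69% and 4.03% of all genes tested. By limma 0 were called and 2 had an unadjusted p under 0.05, beside 0.00561% and 7.96% of all genes tested. The median log2 fold change was -0.22. *Glp1r*, the GLP-1 receptor and the most abundant of them, was at 1068, 964 and 494 TPM in the control clones and at 432, 384 and 414 TPM in the *Snd1* KO clones, and its log2 fold change was -0.96. The gap was narrow, from control 3 at 494 TPM to *Snd1* KO 1 at 432 TPM, and the study had picked *Glp1r* from these libraries. The study also lists *Glp1r* among downregulated genes followed by qPCR of separately isolated RNA. It reports GLP1R protein as trending down in the *Snd1* KO lines. *Ramp3*, whose product modifies calcitonin-family receptors including those for amylin, was at 0.748, 0.716 and 0.236 TPM in the control clones and at 3.93, 0.941 and 1.46 TPM in the *Snd1* KO clones, from 3 to 52 reads. Its groups overlapped under quantile normalization. *Sstr3*, a somatostatin receptor, was at 145 to 159 TPM in the control clones and 143 to 178 TPM in the *Snd1* KO clones. The receptors for secretin and glucagon, *Sctr* and *Gcgr*, and the amylin receptor core *Calcr* did not pass the filter.

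Of 44 other peptide hormone and neuropeptide genes, 19 passed the filter, 9 with a positive and 10 with a negative log2 fold change, beside 57.3% of all genes tested with a positive one. By limma 0 were called and 4 had an unadjusted p under 0.05, beside 0.00561% and 7.96% of all genes tested. In 2 of the 19 every *Snd1* KO clone was higher and in 1 lower, beside 9.69% and 4.03%. By the median ratio *Igf2* was also lower in every *Snd1* KO clone, beside 1205 of all 17781 genes tested. With quantile normalization *Igf2* and *Vgf* were lower in every *Snd1* KO clone, beside 1346 of all 17823 genes tested. The median log2 fold change of the 19 genes was -0.059. *Npy*, the neuropeptide Y gene, was more abundant than *Ins1* as deposited, at 28619, 19691 and 30551 TPM in the control clones and 19236, 13564 and 8588 TPM in the *Snd1* KO clones. Every *Snd1* KO clone was below every control clone, but *Snd1* KO 1 only just, and the groups overlapped under quantile normalization (log2 fold change -0.98, standard error 0.40, limma adjusted p = 0.607). *Insl6*, a relaxin-family gene, was at 3.70, 3.63 and 4.85 TPM in the control clones and at 9.58, 9.94 and 6.36 TPM in the *Snd1* KO clones, from 14 to 35 reads, with a log2 fold change of 0.91 (standard error 0.22, limma adjusted p = 0.544). *Ucn3* was the other gene with every *Snd1* KO clone higher, but outside *Snd1* KO 1 it rested on 2 to 5 reads, and it passed the filter only through that clone, so nothing is read from its count. *Pdyn*, which encodes the dynorphin precursor, was at 708 to 1346 TPM in the control clones and at 1033, 94.9 and 589 TPM in the *Snd1* KO clones.

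Genes of peptide hormone maturation were taken as a list of 16, of which 14 passed the filter. By limma 0 of the 14 were called and 1 had an unadjusted p under 0.05, beside 0.00561% and 7.96% of all genes tested. In 1 of the 14, *Pcsk6*, every *Snd1* KO clone was higher and in 2 lower, beside 9.69% and 4.03%. *Pcsk6*, a convertase gene named after its values were seen, was at 0.181 to 0.312 TPM in the control clones and 0.436 to 1.28 TPM in the *Snd1* KO clones, and it passed the filter only through the *Snd1* KO clones, so nothing is read from its count. The number lower depended on the scaling. By the median ratio it was 5 (*Pam*, *Scg5*, *Pcsk1n*, *Tpst2* and *Pcsk7*), beside 1205 of all 17781 genes tested. With quantile normalization it was 3 (*Pam*, *Tpst2* and *Pcsk7*), beside 1346 of all 17823 genes tested. The median log2 fold change of the 14 genes was -0.097, with 5 above 0 and 9 below, beside 57.3% of all genes tested above 0. *Pam*, the amidating enzyme that secretin, cholecystokinin and amylin all need, was at 135, 147 and 94.9 TPM in the control clones and at 84.7, 37.1 and 71.2 TPM in the *Snd1* KO clones. All *Snd1* KO clones were below all control clones (log2 fold change -1.01, standard error 0.32, limma adjusted p = 0.575), and *Snd1* KO 2 was again the lowest. *Scg5*, a chaperone of the convertase PC2, was at 1440, 1447 and 1454 TPM in the control clones and at 1295, 1325 and 1313 TPM in the *Snd1* KO clones, and its log2 fold change was -0.14. Its groups did not overlap as deposited but did under quantile normalization. *Cpe*, the carboxypeptidase that trims basic residues, was at 3454 to 4233 TPM in the control clones and 3356 to 3617 TPM in the *Snd1* KO clones.

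Of 18 transcription factors of hormone genes, 14 passed the filter. In 5 of the 14 every *Snd1* KO clone was above every control clone, beside 9.69% of all genes tested, and as deposited in 0 below. By limma 0 were called and 5 had an unadjusted p under 0.05, beside 0.00561% and 7.96%, and the median log2 fold change was 0.14. *Neurod1*, an activator at E-boxes of the insulin and secretin genes, was at 399, 382 and 355 TPM in the control clones and at 556, 676 and 726 TPM in the *Snd1* KO clones. The 3 *Snd1* KO clones were well clear of the controls, with a log2 fold change of 0.78 (standard error 0.14, limma adjusted p = 0.372). *Isl1* was at 284, 273 and 262 TPM against 287, 372 and 382 TPM, so *Snd1* KO 1 hardly exceeded control 1. *Creb1* was at 15.0, 15.2 and 12.1 TPM against 18.2, 18.2 and 19.2 TPM. *Pax6*, a factor of all islet endocrine cells, was at 75.5, 73.4 and 80.2 TPM against 84.4, 145 and 107 TPM. *Insm1* was the fifth of these genes. With other scalings the set changed, since every *Snd1* KO clone was above for *Rfx6* with rescaling without insulin and mitochondrial genes. With that rescaling it was so for 2361 of all 18364 genes tested. The groups of *Pax6* and *Insm1* overlapped when clones were scaled by the median ratio, and those of *Pax6* also under quantile normalization. *Pdx1*, the factor through which *Snd1* was studied, was at 1634 to 2164 TPM in the control clones and 1670 to 1873 TPM in the *Snd1* KO clones, and *Nkx6-1* at 699 to 1098 TPM and 772 to 1012 TPM.

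**Figure D5:**
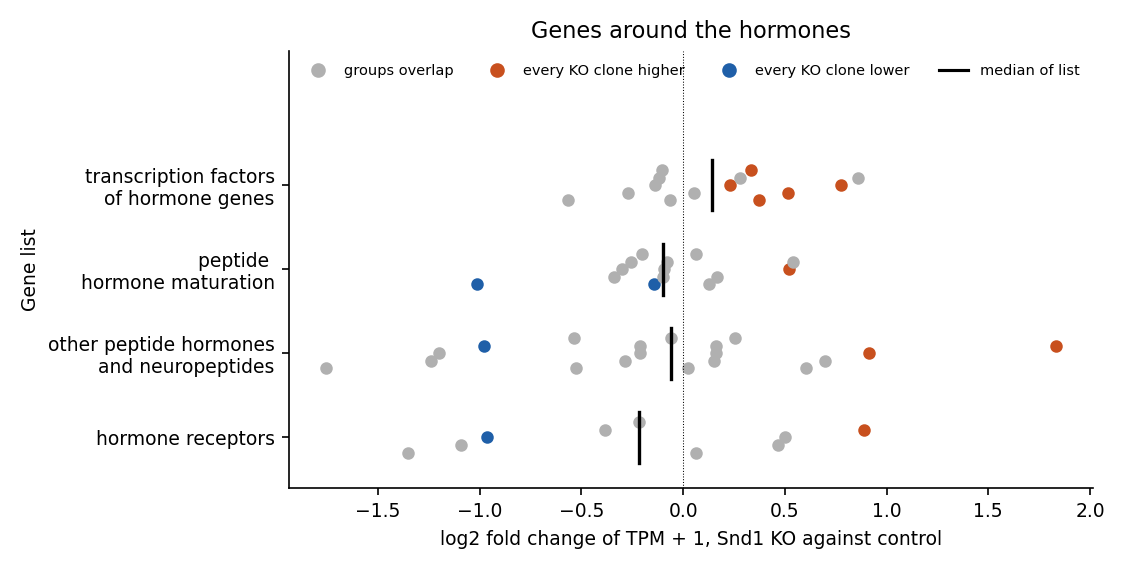
Log2 fold change of TPM + 1, Snd1 KO against control, for every gene of the 4 lists that passed the filter (points), with the list median as a vertical line; orange points have every Snd1 KO clone higher, blue points every Snd1 KO clone lower, grey points overlap. The medians lie at 0.14 for transcription factors, -0.097 for maturation genes, -0.059 for other peptides and -0.22 for receptors, and 5 of the 14 transcription factors are orange.

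Genes whose levels followed a hormone most closely over the 6 clones were listed by Pearson's r of log2(TPM + 1) among the 11367 genes that averaged 5 TPM or more. With 6 clones and this many genes, high values of r are readily reached, and they are given as a description. Beside *Ins1* stood *Gm43048*, *Narf* and *Ypel3* (r from 0.990 to 0.997), and beside *Ins2* stood *Cdc34*, *Pofut1* and *Akr7a5* (0.987 to 0.992). *Iapp* was followed by *Gm11915*, *Mtmr14* and *Tacc2* (0.993 to 0.994), and *Gcg* by *Ehd1*, *Erp29* and *Dusp19* (0.992 to 0.995). For *Sct* they were *Tmed4* and *Cnpy3* (0.993 to 0.995), and for *Cck* they were *Bcam*, *Tmem132a* and *Map2k3os* (0.984 to 0.993). The sizes of change differed. *Erp29*, a chaperone of the endoplasmic reticulum, ranged from 51.1 to 79.0 TPM where *Gcg* ranged from 55.2 to 1100 TPM, and *Tmed4*, a cargo receptor of the early secretory pathway, from 224 to 291 TPM where *Sct* ranged from 19.0 to 340 TPM. *Gm43048* ranged from 1.50 TPM in *Snd1* KO 1 to 17.6 TPM in *Snd1* KO 2, the same clones that were lowest and highest for *Ins1*.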

How the data were processed

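RNA of 6 MIN6 clones (3 control, 3 *Snd1* KO, grouped by the labels) was sequenced, and the authors deposited 1 table of TPM per clone. The submitters' processing notes name FastQC, Trimmomatic, HISAT2, HTSeq, DESeq2 and build mm10, without roles, and the methods name the Genialis platform. Ensembl identifiers were matched to GENCODE M21, in which 53706 of 53801 genes were found, and 92 ERCC and 7 SIRV rows (at most 1.02 TPM) were left out. Reads were recovered from the deposited TPM as whole multiples of the value of 1 read, and gave depth and the floor of 3 reads. Genes that averaged 1 TPM or more, with reads in every clone, served as a check. With the M21 length, 91.7% of them were within 0.01 of a whole number. For genes that did not give whole reads with the M21 length, mainly on the last chromosomes, the length was taken from the steps (for *Ins1* 1016 in place of 1062 bases). That choice makes their values whole, so 100% of values above 0 were whole by construction.

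Genes that averaged 0.5 TPM or more were compared on log2(TPM + 1) by limma 3.58.1 in R 4.3.3 (lmFit, eBayes with a mean-variance trend, genotype only, Benjamini-Hochberg over all 17823 genes), and single genes also by an exact two-sided permutation test (scipy 1.17.1). The fit was tested on simulated data. Python 3.11.15, pandas 2.3.3, numpy 2.4.6, biopython 1.88 and matplotlib 3.10.9 served for the remaining steps. Besides the 10 hormones, the text names from each list up to 4 genes that averaged 1 TPM or more and whose groups do not overlap, by size of change, and the 2 of highest mean, and for each hormone of at least 5 TPM the 3 genes most alike, of which 1 is not reported here. The members and lists were chosen with earlier results of these data known. Alternatives were other pseudocounts, filters, scalings and gene lengths, no trend, clone weights, a replicate block, voom on recovered reads, and leaving out each clone. The replicate numbers were checked for pairing and serve only as names. Protein sequences were not used here.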

Additional observations from a re-analysis of the deposited data

How the results depend on the processing

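*Sct* and *Cck* kept their negative sign and *Iapp* its positive sign under all 17 alternatives, and *Ins1* its positive sign under the 16 that held it (rescaling left the insulin genes out), while *Ins2* turned to 0.0044 under quantile normalization and *Gcg* to 0.72 without *Snd1* KO 2 and 0.022 without *Snd1* KO 3, within a range from -1.42 to 0.72 when a clone was left out. Across all genes the count called was 1, and 0 with no filter, with no trend, with voom on recovered reads and with the replicate block, 3 with each exonic base counted once, 895 with clone quality weights, and 0 to 2 when a clone was left out. Of the hormone genes 2 were called with clone quality weights (*Sct* and *Cck*) and 0 under every other alternative. These weights were 0.279 for control 3 and 0.286 for *Snd1* KO 1 against 3.91 for *Snd1* KO 3. Adjusted p-values of list genes also depended on the setting. The lowest limma adjusted p over the alternatives was 0.0179 for *Neurod1*, 0.0281 for *Pam*, 0.0342 for *Insl6* and 0.0388 for *Npy*. The highest for *Neurod1* was 0.876, and the main fit called none of these genes. The hormone genes without overlap numbered 2 to 4 when a clone was left out, with *Iapp* higher added without control 3, *Ins1* higher and *Gcg* lower added without *Snd1* KO 1, and *Ins2* lower added without *Snd1* KO 2. With fewer clones more of all genes tested did not overlap, 3097 higher and 3209 lower of 17958 without control 3, 4034 and 1941 of 17812 without *Snd1* KO 1 and 2327 and 1227 of 17630 without *Snd1* KO 2, so nothing is read from the added genes. The mean *Ins2* to *Ins1* ratio of deposited TPM, 3.51, was 12.6 with each exonic base counted once, by construction of the lengths. Clones with the same number did not deviate together (correlations over genes of 0.051, -0.12 and -0.074), and the replicate block called 0 hormone genes. The cause of the other changes was not tested. *Sst*, *Ppy*, *Pyy* and *Ghrl* rest on at most 10 reads per clone.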

Other observations

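*Qpct*, which encodes the enzyme that forms N-terminal pyroglutamate on peptide hormones, was on or nearly off by clone and not by genotype. It was at 37.4, 69.0 and 0.105 TPM in the control clones and at 0, 43.8 and 92.3 TPM in the *Snd1* KO clones. It was chosen after its values were seen. *Ttr*, the transthyretin gene, an abundant islet transcript counted here among the α cell markers, was at 17590, 20138 and 14121 TPM in the control clones and at 3796, 3032 and 8774 TPM in the *Snd1* KO clones, and *Rbp4*, counted among the δ cell markers, at 40.0, 32.7 and 23.9 TPM and at 1.07, 10.1 and 8.29 TPM. For both genes every *Snd1* KO clone was below every control clone, beside 4.03% of all genes tested, while the δ cell factor *Hhex* was at 0 reads in every clone. Other markers of these lists did not follow them. For *Slc7a2* the lowest *Snd1* KO clone (96.8 TPM) was above the highest control (96.0 TPM), and *Ghsr* was at 4, 4 and 10 reads in the control clones and at 19, 4 and 12 reads in the *Snd1* KO clones. These 4 genes were also chosen after their values were seen.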
